A study of Mus musculus with 38 samples.

Results

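Organic anion and cation transporters of the kidney were examined as 1 group of genes in 38 RNA-Seq libraries of 3 mouse experiments. The group holds every row of the gene count table whose symbol is Slc22a, Slco or Slc47a with a member number, and it numbers 42 of 55487 genes: 25 of the Slc22a family, 15 of the Slco family and 2 of the Slc47a family. In the anti-glomerular basement membrane (anti-GBM) experiment, male C57BL/6JRj mice aged 8 weeks received nephrotoxic serum after immunization with sheep IgG in adjuvant, while healthy controls received vehicle. From the day after the serum they were given FGF23, a hormone of bone that lowers phosphate reabsorption, at 1 µg per intravenous injection daily for 6 days, or its vehicle. This made groups of 4 healthy mice with vehicle, 3 healthy mice with FGF23, 4 anti-GBM mice with vehicle and 3 anti-GBM mice with FGF23. The Adriamycin experiment used BALB/c females, also aged 8 weeks, that were given Adriamycin, a podocyte toxin, once by vein or its vehicle, and then a single injection of 1 µg FGF23 or vehicle, with 4 mice in each of the 4 groups. Kidneys of both experiments were taken 24 h after the last FGF23 injection, and the FGF23 was recombinant human protein throughout. RNA came from a fragment of each mouse's kidney, the pars intermedia, and not from the whole organ. How far the fragments differed in their shares of cortex and medulla is not given. In the third experiment, precision-cut kidney slices (PCKS) came from male DBA/2J mice, aged 8 weeks at first, fed 0.2% adenine for 15 weeks, which scars the tubulointerstitium, and 4 cultures each were exposed to FGF23 or vehicle. The labels give an exposure of 1 h for the slices and the text of the study gives 24 h. All 8 slice cultures carried adenine nephropathy, so they had no healthy control, and each was a piece of tissue outside the body that holds cortex and medulla without blood supply or urine flow.

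The Slc22 proteins include the organic anion transporters (Oat), which take up acids such as urate, drugs and uremic solutes, and the organic cation transporters (Oct and Octn), which carry bases, carnitine and ergothioneine. The Slco proteins (Oatp) move larger anions, including steroid conjugates, thyroid hormones and prostaglandins, and the Slc47 proteins (Mate) exchange cations for protons at the luminal membrane. In the proximal tubule, uptake from blood across the basolateral membrane and exit across the brush border together secrete these solutes into urine, and this tissue is where most kidney members of the families are made.

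Promoter sequences were read from RefSeq on GRCm38.p6, where 36 of the 42 members had an entry running from 250 bases before to 50 bases after a start site. The first pair below is shown because Slc22a6 (Oat1) and Slc22a8 (Oat3), neighbours on chromosome 19 that carry the bulk of basolateral anion uptake, recur in the results: Slc22a6 was called lower in anti-GBM mice and Slc22a8 was not called, a difference between genes that was not tested. No stretch longer than 7 bases was common to both windows, and capitals mark one of that length, for comparison with the second pair.
Slc22a6, chr19:8617746-8618045, plus strand: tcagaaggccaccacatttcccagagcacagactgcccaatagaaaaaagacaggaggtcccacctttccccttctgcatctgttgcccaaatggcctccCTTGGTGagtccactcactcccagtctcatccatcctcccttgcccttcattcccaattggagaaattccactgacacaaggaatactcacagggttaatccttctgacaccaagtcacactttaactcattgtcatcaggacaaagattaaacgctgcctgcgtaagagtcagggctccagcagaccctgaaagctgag
Slc22a8, chr19:8592932-8593231, plus strand: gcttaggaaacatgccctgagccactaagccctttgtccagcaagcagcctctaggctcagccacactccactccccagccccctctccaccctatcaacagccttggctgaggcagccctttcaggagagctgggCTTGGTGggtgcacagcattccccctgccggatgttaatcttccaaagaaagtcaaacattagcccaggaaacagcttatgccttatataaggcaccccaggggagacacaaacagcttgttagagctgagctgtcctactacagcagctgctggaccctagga
At the best offset without gaps, these windows were identical at 84 of 278 bases, or 30.2%.

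The second pair is shown because Slc22a28 and Slc22a30, members of a cluster of Oat genes found in rodents, are almost alike in their promoters and in much of their transcripts, which limits how far their reads can be told apart. Capitals mark the longest stretch common to both windows, 98 bases long.
Slc22a28, chr19:8131933-8132232, minus strand: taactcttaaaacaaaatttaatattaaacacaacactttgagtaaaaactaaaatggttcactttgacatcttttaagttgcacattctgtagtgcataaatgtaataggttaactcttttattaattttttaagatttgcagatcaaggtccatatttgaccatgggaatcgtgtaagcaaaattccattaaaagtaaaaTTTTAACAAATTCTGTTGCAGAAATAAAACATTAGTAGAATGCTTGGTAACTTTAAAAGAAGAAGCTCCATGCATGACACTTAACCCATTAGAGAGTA
Slc22a30, chr19:8405056-8405355, minus strand: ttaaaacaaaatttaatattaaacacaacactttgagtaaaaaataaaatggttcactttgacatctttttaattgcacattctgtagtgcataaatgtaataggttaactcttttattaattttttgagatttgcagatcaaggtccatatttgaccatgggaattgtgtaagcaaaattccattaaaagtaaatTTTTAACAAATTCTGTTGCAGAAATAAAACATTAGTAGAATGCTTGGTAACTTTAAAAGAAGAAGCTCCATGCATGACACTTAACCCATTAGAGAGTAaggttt
Aligned without gaps at an offset of 6 bases, the windows were identical at 288 of 294 bases, or 98.0%. The promoter of Slc22a29 in the same cluster was 68.1% identical to that of Slc22a30 over 276 bases. Of all 58-base windows of Slc22a28 transcripts, 50.3% also occurred in transcripts of another gene, chiefly Slc22a30, and the share was 31.3% in Slc22a30. It was 33.7% in Slc22a13 (with the pseudogene Slc22a13b-ps), 24.9% in Slc22a27 and 23.9% in Slc22a29 (with each other), 22.7% in Slc22a5 and 19% in Slc22a21 (with each other), and at most 4.89% in the other members. How reads that fit several genes were handled is not given in the sources used here, so values of these 7 members are uncertain to that extent. Exons of Slc22a12, Slc22a3, Slco2a1 and Slco2b1 overlap exons of other genes on the opposite strand.

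Total counts per library ranged from 13704248 to 23630210 in the anti-GBM experiment, from 15665050 to 27583911 in the Adriamycin experiment and from 11186925 to 16254987 in the slices. Levels are given as CPM, the count of a gene per 1000000 counts of the library size after TMM scaling. After edgeR's filter on low counts, 32 of the 42 members were tested among anti-GBM and control mice, 30 among Adriamycin and control mice and 24 in the slices, and a change is called below where the p-value adjusted over all tested genes is under 0.05. Slc22a16, Slc22a20, Slco6b1 and Slco6c1 had 0 counts in all 38 libraries, Slco6d1 had 1 count, Slco1b2 had 36, Slco1c1 had 53, Slco1a5 had 58 and Slc47a2 had 108 counts over all libraries. The remaining members not tested were Slc22a27 in the anti-GBM experiment, Slc22a14, Slco1a1 and Slco5a1 in the Adriamycin experiment, and Slc22a3, Slc22a14, Slc22a26, Slc22a27, Slc22a28, Slc22a30, Slco1a1, Slco1a4 and Slco4c1 in the slices. Kidney identity was clear in the kidney fragments of the anti-GBM and Adriamycin experiments, where 10 proximal tubule markers summed to 11150 to 25463 CPM. The slices had far less of them on the same scale, 445 to 1190 CPM, beside 4 injury markers at 6363 to 13700 CPM.

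Several libraries stood apart. The count column of mouse NTS14 (anti-GBM, FGF23) carries the name NTS4, which is also the name of a healthy mouse with vehicle, and was placed by the header of a table of the study. Without it, 21 members were called in anti-GBM disease (4 higher, 17 lower) and 0 for FGF23. Mice NTS3 (healthy, vehicle) and NTS5 (anti-GBM, vehicle) had very low levels of Slc22a7, Slc22a13, Slc22a19, Slc22a26 and Slco4c1, although Slc22a6 and Slc22a8 were not low in them. In NTS5 the 4 markers of the thick ascending limb and distal tubule summed to 3203 CPM, against 4683 to 7373 CPM in the other anti-GBM mice with vehicle. In NTS3 they summed to 4937 CPM, against 5685 to 7027 CPM in the other healthy mice with vehicle. Of the 4, Umod and Slc12a1 were lowest of their group, at 1169 and 195 CPM in NTS5 and 2797 and 513 CPM in NTS3. Slc12a3 and Calb1 were not low. They were highest of the group in NTS5, at 1340 and 499 CPM, and were at 1115 and 512 CPM in NTS3. The part of these markers in the levels of the 5 transporters was not tested. Mouse NTS7 (anti-GBM, vehicle) had the highest sum of injury markers of the experiment, 16130 CPM. Slice culture 1F had 1190 CPM of proximal tubule markers and 326 CPM of collecting duct markers, against at most 765 and 77.2 CPM in the other 7 cultures.

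Compared per kilobase of exon, the order of the transporters in healthy mice with vehicle was led by Slc22a12 in both strains. In C57BL/6JRj males, Slc22a12, the urate transporter of the brush border, was at 955 ± 106 CPM per kilobase (SD, n = 4), and Slc22a6 followed at 333 ± 61.9 CPM per kilobase. Slc22a6 and Slc22a18, at 272 ± 10.3 CPM per kilobase, differed by less than the SD of Slc22a6, and Slc47a1 was at 215 ± 14.5 CPM per kilobase. In BALB/c females, Slc22a12 was at 257 ± 28.8, Slc22a18 at 185 ± 7.57 and Slc22a8 at 184 ± 11.7 CPM per kilobase. In vehicle-treated slices the order was another: Slc22a4 was at 24.1 ± 1.098, Slco4a1 at 13.5 ± 0.81 and Slc22a8 at 13.4 ± 2.48 CPM per kilobase. Slco1a1 (Oatp1a1) was at 311.6 to 648.8 CPM in the healthy C57BL/6JRj males but had 17 counts over all 16 BALB/c libraries and 3 counts over all 8 slice libraries. Strain, sex, disease and culture differ together between the experiments and cannot be told apart, so no level was compared between them by a test.

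The first comparison asked how kidney transporters differ between anti-GBM and healthy mice, over both treatments. Of 32 tested members, 22 were called: 18 fell and 4 rose. Uptake carriers for urate and other anions, cations and carnitine fell, with Slc22a12, Slc22a4 and Slco1a1 among them, whereas Slco5a1, Slco4a1, Slc22a15 and the prostaglandin transporter Slco2a1 rose. The share of members called was 68.8%, in an experiment where 48.3% of all 15859 tested genes were called, 24.7% as lower and 23.6% as higher. The median log2 fold change was -0.58 over the tested members and -0.02 over all tested genes. All members summed to 8060 to 9594 CPM in healthy and 4285 to 6640 CPM in anti-GBM mice with vehicle, and to 7274 to 9452 and 4815 to 5395 CPM in those with FGF23. In RNA of mixed kidney tissue, fewer proximal tubule cells and less RNA per cell cannot be told apart. Of the 10 proximal tubule markers, 9 fell, with a median log2 fold change of -0.56 over the 10. Their sums were 20125 to 25463 CPM in the 7 healthy mice and 11150 to 20534 CPM in the 7 anti-GBM mice, and none of the 10 was at 0. Markers of leukocytes (5 of 6), fibroblasts (4 of 4) and tubular injury (4 of 4) rose. The part of these shifts in the transporter results was not tested.

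**Figure D1:**
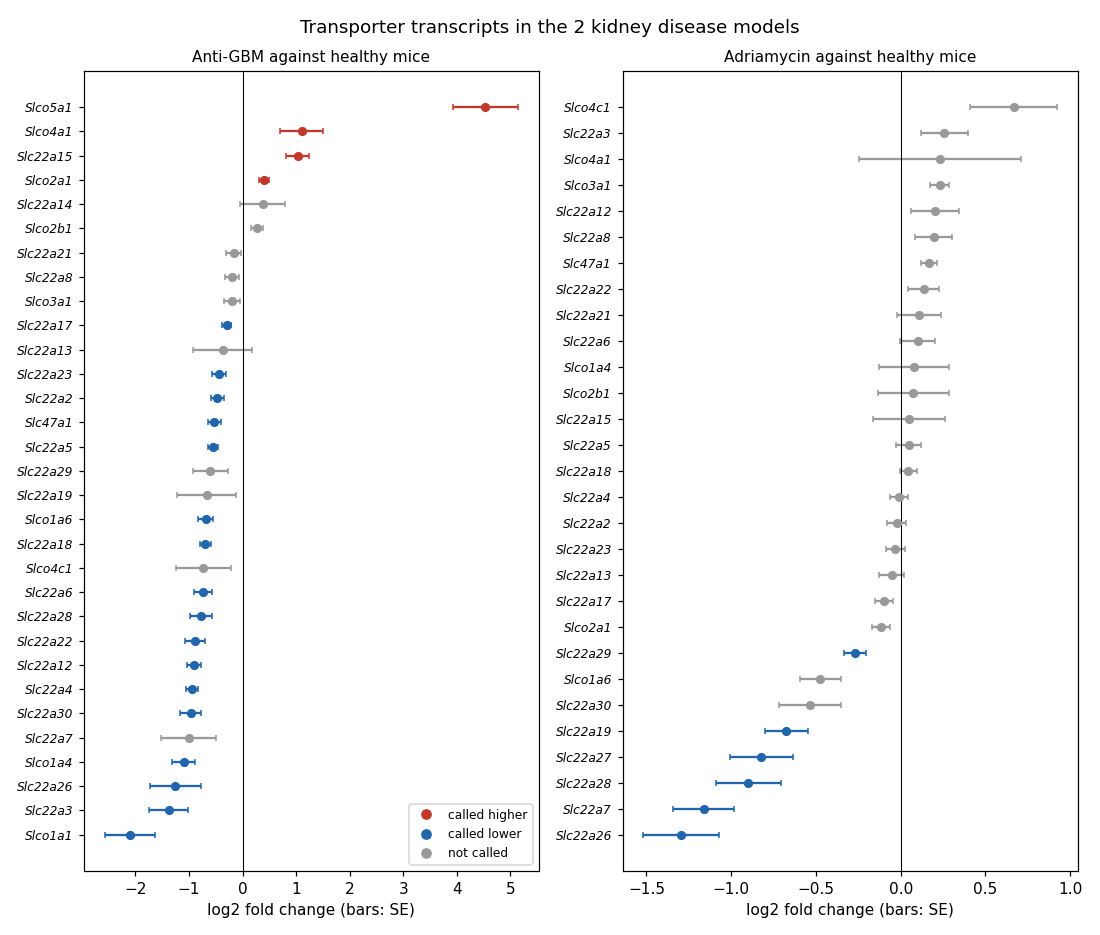
Log2 fold change of the tested transporters (points; bars are SE) in anti-GBM against healthy mice (left, 7 against 7) and in Adriamycin against healthy mice (right, 8 against 8). Red and blue points were called higher and lower at an adjusted p under 0.05, and grey points were not called. Most called members were lower on the left and all 6 were lower on the right, on axes of different range.

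Among the basolateral anion carriers, Slc22a6 fell and Slc22a8 and Slc22a7 did not pass the test. Slc22a6 measured 1033, 1542, 1520.0 and 1215 CPM in healthy mice with vehicle and 1625, 1030.1 and 1092 CPM in healthy mice with FGF23. In anti-GBM mice it measured 1249, 804, 576 and 702 CPM with vehicle and 675, 722 and 743 CPM with FGF23, so that 6 of 7 diseased mice lay below every healthy mouse and NTS5 lay among them (log2 fold change -0.74, SE 0.17, adjusted p = 0.0021). Slc22a8, the neighbour whose promoter is shown above, measured 499, 492, 638 and 596 CPM in healthy mice with vehicle and 539, 532 and 370.2 CPM in healthy mice with FGF23. Its values with disease were 669, 390.4, 597 and 649.7 CPM with vehicle and 330.4, 364 and 366 CPM with FGF23, which overlapped the healthy range (log2 fold change -0.20, SE 0.12, adjusted p = 0.21). Slc22a7 (Oat2), which carries cyclic nucleotides and other anions, ranged from 69.5 to 365 CPM in healthy and from 8.997 to 260.2 CPM in anti-GBM mice (log2 fold change -1.01, SE 0.52, adjusted p = 0.122). Without NTS3 and NTS5 it was called lower, at a log2 fold change of -0.92 with an adjusted p of 0.032 by edgeR. Both mice were picked after their low Slc22a7, among others, was seen, so that call carries no independent weight.

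Slc22a12, which reabsorbs urate, showed one of the clearest differences of the group. It measured 2040.4, 2515, 2099.5 and 1991 CPM in healthy mice with vehicle and 2576, 1732 and 2696 CPM in healthy mice with FGF23. Anti-GBM mice measured 1294, 1335, 796 and 1271 CPM with vehicle and 1114, 1287 and 1270.4 CPM with FGF23, with no overlap and a fitted level of 53.4% of that of healthy mice (log2 fold change -0.91, SE 0.13, adjusted p = 6.69e-05). Slc22a22, a prostaglandin-specific anion transporter, measured 130.5, 133, 165 and 121 CPM in healthy mice with vehicle and 144, 119 and 129 CPM in healthy mice with FGF23. Disease values of 110.4, 92.6, 41.97 and 58.7 CPM with vehicle and 50.5, 69.8 and 85.9 CPM with FGF23 all lay below these (log2 fold change -0.89, SE 0.19, adjusted p = 0.00128). Of the cluster on chromosome 19, Slc22a30 measured 120.1, 162, 138 and 100.2 CPM in healthy mice with vehicle and 135, 104 and 149 CPM in healthy mice with FGF23. It fell to 93.6, 74.9, 29.5 and 58.02 CPM with vehicle and 63.5, 68.96 and 72.3 CPM with FGF23, again without overlap (log2 fold change -0.97, SE 0.20, adjusted p = 0.00103). Its near copy Slc22a28 measured 107, 134, 142 and 101 CPM in healthy mice with vehicle and 130.2, 89.8 and 123 CPM in healthy mice with FGF23. In anti-GBM mice Slc22a28 measured 107, 81.3, 37.9 and 54.5 CPM with vehicle and 47.6, 64.4 and 87.5 CPM with FGF23, and NTS5 alone reached the healthy range (log2 fold change -0.78, SE 0.20, adjusted p = 0.00585).

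The other members of this set had wider spreads. Slc22a26 was called lower by a narrow margin (log2 fold change -1.25, SE 0.48, adjusted p = 0.0423). It ranged from 10.4 to 61.6 CPM in healthy and from 1.23 to 27.6 CPM in anti-GBM mice, and it was called in 4 of the 14 fits that left out 1 mouse. Slc22a19 (Oat5) ranged from 28.7 to 179.8 and from 2.10 to 146 CPM (log2 fold change -0.67, SE 0.56, adjusted p = 0.338), and Slc22a13, a carrier of urate and nicotinate, from 16.02 to 126 and from 1.28 to 94.8 CPM (log2 fold change -0.37, SE 0.55, adjusted p = 0.606). Neither passed the test with or without NTS3 and NTS5. Slc22a29 was at 4.52 CPM or less in every mouse (log2 fold change -0.61, SE 0.32, adjusted p = 0.138).

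**Figure D2:**
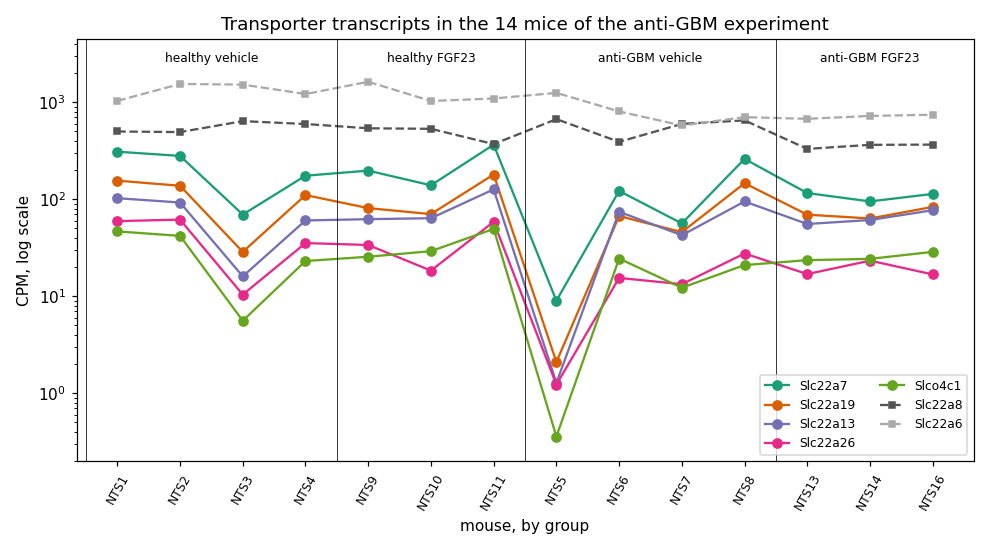
CPM (log axis) of 7 transporters in each of the 14 mice of the anti-GBM experiment, in order of group; lines only join the points of a gene. Slc22a7, Slc22a19, Slc22a13, Slc22a26 and Slco4c1 were lowest in NTS5 and low in NTS3, where Slc22a6 and Slc22a8 (squares) were not.

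The co-variation of the 5 transporters in these mice was large. In NTS5, Slc22a7 was at 8.997, Slc22a19 at 2.10, Slc22a13 at 1.28, Slc22a26 at 1.23 and Slco4c1 at 0.36 CPM, whereas the other anti-GBM mice were at 56.3 to 260.2, 45.8 to 146, 42.5 to 94.8, 13.3 to 27.6 and 12.2 to 28.7 CPM. In NTS3 they were at 69.5, 28.7, 16.02, 10.4 and 5.59 CPM, against at least 139, 70.3, 60.4, 18.4 and 23.1 CPM in the other healthy mice. Slc7a13, a cystine transporter of the last segment of the proximal tubule, was at 259.9 CPM in NTS5 and 137 to 465 CPM in the other anti-GBM mice, so it was not lowest there. Umod, the marker of the thick ascending limb, was at 1169 CPM in NTS5 and at 2767 CPM or more in the other 13 mice. These values are given as a description.

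The cation carriers Slc22a2, Slc47a1 and Slc22a3 fell. Slc22a2 (Oct2), the main basolateral cation carrier, measured 402, 466, 393 and 374 CPM in healthy mice with vehicle and 444, 336 and 493 CPM in healthy mice with FGF23. Disease values were 315, 348, 219 and 377 CPM with vehicle and 259, 279 and 321 CPM with FGF23, with NTS6 and NTS8 inside the healthy range (log2 fold change -0.47, SE 0.12, adjusted p = 0.00477). Slc47a1 (Mate1), which expels cations into urine, measured 654, 735, 759.7 and 755 CPM in healthy mice with vehicle and 733, 685 and 772 CPM in healthy mice with FGF23. In anti-GBM mice it measured 747, 582, 408 and 446 CPM with vehicle and 430.4, 456 and 519.9 CPM with FGF23, and NTS5 alone lay within the healthy range (log2 fold change -0.53, SE 0.12, adjusted p = 0.00202). Slc22a3 (Oct3) was near the limit of detection, at 0.68, 0.76, 1.15 and 0.33 CPM in healthy mice with vehicle and 1.83, 1.20 and 0.77 CPM in healthy mice with FGF23. With disease it was at 0.10, 0.32, 0.51 and 0.36 CPM with vehicle and 0.24, 0.35 and 0.69 CPM with FGF23, which overlapped (log2 fold change -1.38, SE 0.36, adjusted p = 0.00542).

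Of 3 tested carnitine and ergothioneine carriers, 2 fell. Slc22a4 (Octn1) had the smallest p of all members, with 67.1, 63.5, 60.4 and 58.8 CPM in healthy mice with vehicle and 63.5, 60.7 and 70.6 CPM in healthy mice with FGF23. Every anti-GBM mouse was lower, at 39.3, 42.02, 21.8 and 34.8 CPM with vehicle and 29.1, 30.7 and 35.8 CPM with FGF23 (log2 fold change -0.94, SE 0.12, adjusted p = 2.06e-05). Slc22a5 (Octn2), which reabsorbs carnitine, measured 249, 281, 296 and 319 CPM in healthy mice with vehicle and 306, 247 and 219.8 CPM in healthy mice with FGF23. It fell to 228, 182, 209 and 181 CPM with vehicle and 156, 174 and 186 CPM with FGF23, and NTS5 alone overlapped the healthy range (log2 fold change -0.55, SE 0.088, adjusted p = 1.66e-04). Slc22a21, a carnitine carrier that shares much sequence with Slc22a5, was at 1.79 to 3.14 CPM in all 14 mice (log2 fold change -0.16, SE 0.14, adjusted p = 0.352).

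The Slc22a members outside these classes moved both ways. Slc22a18, an organic cation transporter-like gene, measured 471, 463, 478 and 438 CPM in healthy mice with vehicle and 498, 474 and 467 CPM in healthy mice with FGF23. Anti-GBM mice had 343, 329, 218 and 366 CPM with vehicle and 228, 279.8 and 297 CPM with FGF23, without overlap (log2 fold change -0.70, SE 0.10, adjusted p = 7.75e-05). Slc22a17, a receptor for lipocalin-2, measured 31.5, 24.5, 29.9 and 32.9 CPM in healthy mice with vehicle and 31.5, 31.8 and 35.9 CPM in healthy mice with FGF23. It fell slightly, to 26.99, 25.5, 20.9 and 27.1 CPM with vehicle and 23.4, 26.98 and 26.8 CPM with FGF23, with overlap at NTS2 (log2 fold change -0.30, SE 0.080, adjusted p = 0.0068). Slc22a23 measured 129, 116, 133 and 188 CPM in healthy mice with vehicle and 139, 122 and 105 CPM in healthy mice with FGF23. It was lower at 107, 94.8, 142 and 90.7 CPM with vehicle and 80.8, 101.9 and 74.3 CPM with FGF23, with overlapping ranges (log2 fold change -0.44, SE 0.13, adjusted p = 0.0114). In contrast, Slc22a15 rose from 3.11, 2.33, 1.95 and 3.78 CPM in healthy mice with vehicle and 2.49, 5.58 and 2.51 CPM in healthy mice with FGF23. Its disease values were 5.37, 6.31, 6.37 and 6.05 CPM with vehicle and 9.08, 6.81 and 4.55 CPM with FGF23, and the ranges overlapped because NTS10 was high among healthy mice (log2 fold change 1.03, SE 0.22, adjusted p = 0.00139). Slc22a14 was at 0.94 CPM or less in every mouse (log2 fold change 0.38, SE 0.42, adjusted p = 0.488).

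In the Slco1 branch all 3 tested members fell. Slco1a1, an uptake carrier for steroid and bile acid conjugates, measured 364, 649, 629 and 378 CPM in healthy mice with vehicle and 496, 312 and 455 CPM in healthy mice with FGF23. It measured 214, 136, 6.78 and 57.7 CPM with vehicle and 125, 105 and 103 CPM with FGF23, so that disease left 23.3% of the healthy level on the fitted scale, and no mouse overlapped (log2 fold change -2.10, SE 0.47, adjusted p = 0.00226). The lowest of these, 6.78 CPM, was NTS7, the mouse with the highest injury markers, and without it the log2 fold change was -1.91. Slco1a6 measured 276, 352, 414 and 279 CPM in healthy mice with vehicle and 319, 278 and 242 CPM in healthy mice with FGF23. It fell to 293, 206, 157 and 160.2 CPM with vehicle and 152, 189.9 and 178 CPM with FGF23, with NTS5 in the healthy range (log2 fold change -0.69, SE 0.14, adjusted p = 0.0013). Slco1a4, a minor form in kidney, measured 1.70, 2.28, 2.196 and 2.19 CPM in healthy mice with vehicle and 1.60, 2.16 and 2.79 CPM in healthy mice with FGF23. It was at 1.58, 0.84, 0.62 and 0.65 CPM with vehicle and 0.91, 1.101 and 1.14 CPM with FGF23, just below the healthy mice (log2 fold change -1.098, SE 0.22, adjusted p = 8.88e-04).

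The Slco2 to Slco6 branch held 3 of the 4 members that rose. Slco2a1, which takes up prostaglandins for breakdown, measured 56.6, 57.8, 45.03 and 50.2 CPM in healthy mice with vehicle and 49.4, 47.5 and 57.8 CPM in healthy mice with FGF23. It rose to 48.9, 64.2, 73.05 and 68.03 CPM with vehicle and 80.3, 73.9 and 69.4 CPM with FGF23, although NTS5 was within the healthy range (log2 fold change 0.41, SE 0.091, adjusted p = 0.00217). Slco5a1 had 3 counts in total over the 7 healthy mice and 91 counts over the 7 anti-GBM mice, where single mice held 3 to 33 counts. The ratio of the pooled rates was 30.5, with an exact 95% interval of 10.1 to 151 that covers counting error only, and the adjusted p was 4.12e-05 by edgeR. Slco4a1, a thyroid hormone carrier, ranged from 3.15 to 22.1 CPM in healthy and from 8.69 to 31.8 CPM in anti-GBM mice (log2 fold change 1.102, SE 0.40, adjusted p = 0.0325). Slco4a1 was called in 7 of the 14 fits that left out 1 mouse, and NTS10 alone, at 22.1 CPM, set the top of the healthy range. Collecting duct markers were highest of the healthy mice in NTS10, at 632 CPM. They were highest of the anti-GBM mice in NTS8, the mouse at 31.8 CPM, at 552 CPM. NTS13, also at 22.1 CPM of Slco4a1, had the lowest collecting duct sum of its group, 328 CPM. The part of these markers was not tested. Slco2b1 ranged from 33.4 to 50.3 and from 38.3 to 73.6 CPM and just missed the threshold (log2 fold change 0.28, SE 0.11, adjusted p = 0.0533). Slco3a1, at 199.5 to 308 and 132 to 287 CPM, did not pass (log2 fold change -0.20, SE 0.14, adjusted p = 0.265), and neither did Slco4c1, a digoxin and steroid carrier of the proximal tubule, at 5.59 to 49.5 and 0.36 to 28.7 CPM (log2 fold change -0.74, SE 0.51, adjusted p = 0.255). Without NTS3 and NTS5, Slco4c1 was called lower at a log2 fold change of -0.67 (adjusted p = 0.0232) and Slco2b1 higher at 0.33 (adjusted p = 0.0465). Both mice were picked after their low Slco4c1, among others, was seen, so its call there carries no independent weight.

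**Figure D3:**
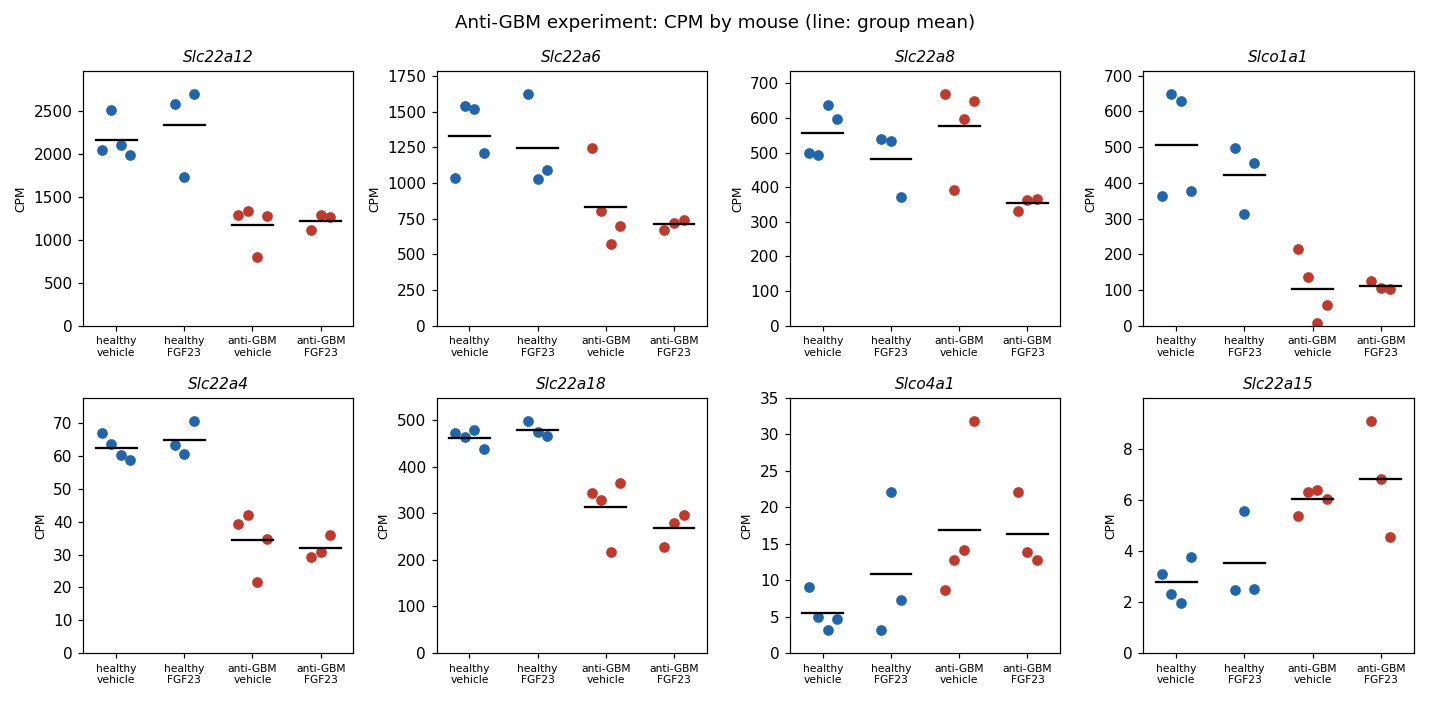
CPM in each mouse of the anti-GBM experiment (points; black lines are group means) for 8 transporters, on linear axes from 0; blue are healthy and red are anti-GBM mice. Slc22a12, Slc22a4, Slc22a18 and Slco1a1 did not overlap between healthy and diseased mice, whereas Slc22a8 did.

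Genes that work with these transporters were measured in the same comparison, where 24.7% of all tested genes were called lower and 23.6% higher. Of 11 partners that supply their sodium or dicarboxylate gradients, carry urate and other anions beside them or scaffold them, 8 fell (Slc13a3 and Slc5a12 of these are also on the list of proximal tubule markers), among them Slc13a3, the basolateral dicarboxylate carrier that fuels Oat exchange (log2 fold change -0.40, SE 0.12, adjusted p = 0.0115), and Slc17a3, a luminal urate and anion exit (log2 fold change -0.63, SE 0.12, adjusted p = 8.57e-04). Of 9 ABC efflux pumps, 2 rose and 3 fell, a share near the 48.3% of all genes called in either direction. The basolateral pump Abcc3 rose (log2 fold change 1.45, SE 0.19, adjusted p = 3.56e-05) as did Abcb1b (log2 fold change 0.53, SE 0.14, adjusted p = 0.00563), whereas the luminal pumps Abcc2 (log2 fold change -0.69, SE 0.10, adjusted p = 7.74e-05) and Abcg2 (log2 fold change -0.58, SE 0.08, adjusted p = 3.65e-05) fell with Abcc6. Of 9 regulators, 1 rose and 3 fell, also beside the 48.3% of all genes called in either direction. The transcription factors Hnf4a (log2 fold change -0.48, SE 0.07, adjusted p = 1.17e-04) and Ppara were among those that fell, and Nfe2l2 rose (log2 fold change 0.40, SE 0.06, adjusted p = 1.01e-04). The medians of these lists were -0.40 for partners and 0.14 for pumps, beside -0.02 over all genes.

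The second comparison asked the same of Adriamycin nephropathy. Of 30 tested members, 6 were called and all 6 fell: Slc22a7 and 5 genes of the Oat cluster on chromosome 19, Slc22a19, Slc22a26, Slc22a27, Slc22a28 and Slc22a29. The share of members called was 20%, in an experiment where 1.94% of all 16020 tested genes were called and 0.968% were called lower. The median log2 fold change was 0.04 over the tested members and -0.01 over all tested genes. At an unadjusted p under 0.05 were 13 of the 30 members, 4 higher and 9 lower, beside 2404 of all 16020 genes. No proximal tubule marker of 10 was called, their median log2 fold change was 0.01, and their sums were 12854 to 14744 CPM in healthy and 12092 to 15977 CPM in Adriamycin mice. None of 4 podocyte markers was called by edgeR either, with 0 at an unadjusted p under 0.05, and of 4 injury markers Havcr1 fell. The 5 cluster members lie between positions 7673061 and 8218900 of chromosome 19 (GRCm38), on the minus strand, and Slc22a27, Slc22a28 and Slc22a29 share transcript windows with other genes of the cluster as given above, so they are not independent. All members summed to 4137 to 5345 CPM in healthy and 4513 to 5474 CPM in Adriamycin mice.

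Slc22a7, the carrier of cyclic nucleotides and other anions, had the smallest p, with 189.7, 107, 153 and 98.00 CPM in healthy mice with vehicle and 150.1, 111, 97.8 and 117 CPM in those with FGF23. Every Adriamycin mouse was lower, at 38.4, 69.1, 39.03 and 55.99 CPM with vehicle and 74.8, 78.2, 66.6 and 37.1 CPM with FGF23, or 44.7% of the healthy level on the fitted scale (log2 fold change -1.16, SE 0.18, adjusted p = 0.00244). Slc22a19, which carries steroid sulfates, measured 259, 155, 246 and 176 CPM in healthy mice with vehicle and 169, 192, 201 and 207 CPM in those with FGF23. It fell to 106, 154, 99.1 and 116 CPM with vehicle and 126, 143, 164 and 96.4 CPM with FGF23, with Ad15 above the lowest healthy mouse (log2 fold change -0.67, SE 0.13, adjusted p = 0.011). Slc22a26 measured 10.9, 6.35, 10.4 and 4.49 CPM in healthy mice with vehicle and 6.25, 5.31, 3.88 and 2.54 CPM in those with FGF23. It was at 2.25, 2.94, 1.98 and 2.44 CPM with vehicle and 1.97, 3.43, 2.86 and 1.61 CPM with FGF23, with overlap at Ad12 (log2 fold change -1.29, SE 0.22, adjusted p = 0.00595). Slc22a28 measured 9.19, 7.61, 12.7 and 7.54 CPM in healthy mice with vehicle and 10.3, 10.9, 8.25 and 4.76 CPM in those with FGF23. Its Adriamycin values were 4.30, 5.05, 4.17 and 4.65 CPM with vehicle and 2.96, 5.50, 7.38 and 4.05 CPM with FGF23, which overlapped at Ad12 (log2 fold change -0.90, SE 0.19, adjusted p = 0.0217). Its near copy Slc22a30 had 3.88, 2.82, 4.41 and 2.46 CPM in healthy mice with vehicle and 2.91, 4.08, 2.27 and 2.17 CPM in those with FGF23. With Adriamycin it had 0.98, 2.39, 1.98 and 2.09 CPM with vehicle and 2.28, 2.42, 2.81 and 2.44 CPM with FGF23, and the difference did not pass the test (log2 fold change -0.54, SE 0.18, adjusted p = 0.163). Whether both copies differed in response was not tested.

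Slc22a27 was low throughout, with 3.88, 3.04, 4.36 and 3.13 CPM in healthy mice with vehicle and 2.48, 3.88, 4.75 and 3.25 CPM in those with FGF23. It measured 1.03, 1.70, 2.02 and 2.33 CPM with vehicle and 1.92, 1.58, 3.05 and 2.89 CPM with FGF23 in Adriamycin mice, with overlap (log2 fold change -0.82, SE 0.18, adjusted p = 0.0292). Slc22a29, at a higher level, had 54.7, 52.3, 54.7 and 54.02 CPM in healthy mice with vehicle and 57.7, 62.9, 58.3 and 44.3 CPM in those with FGF23. Its decrease was the smallest of the 6, to 46.2, 37.6, 39.8 and 49.1 CPM with vehicle and 49.7, 48.3, 48.5 and 45.5 CPM with FGF23, and Ad12 again overlapped (log2 fold change -0.27, SE 0.066, adjusted p = 0.0467). Leaving out 1 mouse at a time kept Slc22a7, Slc22a19 and Slc22a26 below the threshold of 0.05 in 16 of 16 fits, Slc22a28 in 13, Slc22a27 in 8 and Slc22a29 in 2. The count of members called fell to 3 without Ad3 and rose to 8 without Ad6. Among mice with vehicle alone, Slc22a7 and Slc22a26 were called, and among mice with FGF23 alone none was, where the log2 fold changes were still below 0 for all 6.

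**Figure D4:**
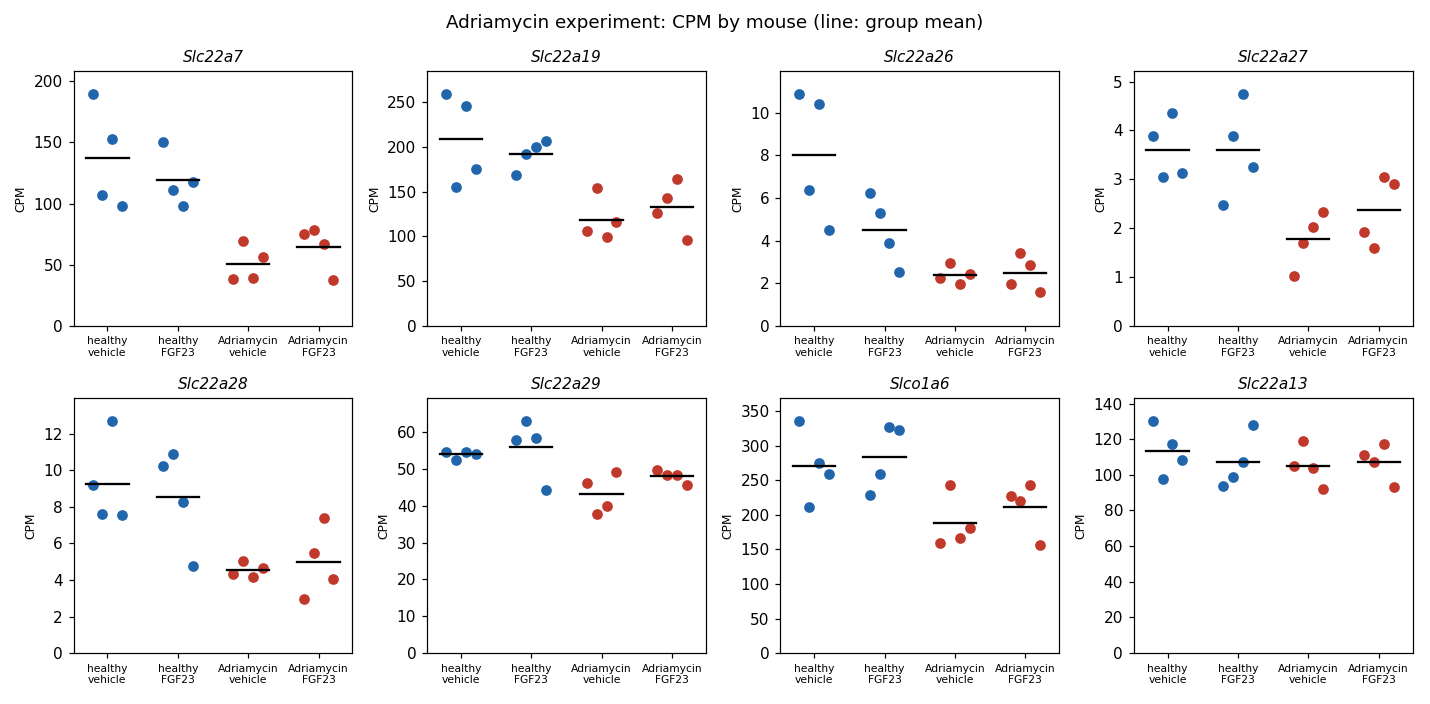
CPM in each mouse of the Adriamycin experiment (points; black lines are group means) for the 6 members called lower and for Slco1a6 and Slc22a13, which were not called, on linear axes from 0. Blue are healthy and red are Adriamycin mice; Slc22a7 did not overlap, and Slc22a13 lay at the same level in both.

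Next to the threshold lay Slco1a6 and Slco3a1. Slco1a6 measured 336, 212, 275 and 259 CPM in healthy mice with vehicle and 228, 259, 328 and 323 CPM in those with FGF23. Its Adriamycin values were 159, 243, 167 and 182 CPM with vehicle and 227, 221, 244 and 157 CPM with FGF23 (log2 fold change -0.47, SE 0.12, adjusted p = 0.053). Slco3a1, a carrier of prostaglandins and thyroid hormone, measured 71.3, 62.4, 59.97 and 63.5 CPM in healthy mice with vehicle and 59.7, 50.6, 63.8 and 66.8 CPM in those with FGF23. It was at 73.2, 74.97, 66.4 and 72.2 CPM with vehicle and 78.4, 78.7, 73.2 and 66.6 CPM with FGF23 with Adriamycin (log2 fold change 0.23, SE 0.057, adjusted p = 0.0502). The ranges of both overlapped between healthy and Adriamycin mice. The cation exporter Slc47a1 had a small positive difference that did not pass. It measured 536, 504, 534 and 477 CPM in healthy mice with vehicle and 506, 592, 509 and 527 CPM in those with FGF23. Adriamycin mice had 615, 513, 564 and 622 CPM with vehicle and 589, 588, 579 and 634 CPM with FGF23 (log2 fold change 0.17, SE 0.048, adjusted p = 0.0867). Its ranges overlapped too, and DESeq2 called Slco1a6, Slco3a1 and Slc47a1.

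Slco4c1 had 8.06, 4.92, 6.17 and 10.4 CPM in healthy mice with vehicle and 2.96, 8.72, 15.7 and 13.2 CPM in those with FGF23. With Adriamycin it had 15.7, 13.9, 15.6 and 10.1 CPM with vehicle and 14.8, 7.78, 15.8 and 16.1 CPM with FGF23, a positive difference within wide spreads (log2 fold change 0.67, SE 0.26, adjusted p = 0.224). Slco2a1, the prostaglandin carrier, overlapped across groups, with 68.04, 61.7, 71.5 and 58.6 CPM in healthy mice with vehicle and 69.04, 60.8, 68.6 and 62.04 CPM in those with FGF23. Adriamycin mice had 61.1, 64.6, 55.9 and 60.6 CPM with vehicle and 52.1, 63.3, 59.2 and 63.3 CPM with FGF23 (log2 fold change -0.12, SE 0.053, adjusted p = 0.317). Slc22a3, a cation carrier of wide tissue range, also overlapped and had 4.17, 4.34, 4.65 and 5.25 CPM in healthy mice with vehicle and 4.43, 5.98, 2.48 and 3.82 CPM in those with FGF23. It measured 6.22, 6.11, 4.95 and 4.65 CPM with vehicle and 4.41, 5.10, 5.71 and 4.95 CPM with FGF23 with Adriamycin (log2 fold change 0.26, SE 0.14, adjusted p = 0.396). Slc22a17 measured 56.6, 54.9, 55.95 and 54.02 CPM in healthy mice with vehicle and 58.1, 60.4, 48.4 and 48.5 CPM in those with FGF23. The Adriamycin mice overlapped these at 51.05, 46.5, 46.6 and 54.02 CPM with vehicle and 47.1, 53.3, 54.8 and 55.2 CPM with FGF23 (log2 fold change -0.10, SE 0.054, adjusted p = 0.416).

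Slc22a12 and Slc22a6, which fell in anti-GBM disease, and Slc22a8 were not called here, and a difference between the diseases was not tested. Slc22a12 measured 605, 588, 644 and 490.4 CPM in healthy mice with vehicle and 636, 517, 263 and 355 CPM in those with FGF23, with Ad11 and Ad12 low. Adriamycin mice had 568, 549, 642 and 582 CPM with vehicle and 491, 720.5, 610.5 and 508 CPM with FGF23 (log2 fold change 0.20, SE 0.14, adjusted p = 0.544). Slc22a8 measured 695, 766, 749 and 668 CPM in healthy mice with vehicle and 871, 773, 480.0 and 543 CPM in those with FGF23. With Adriamycin it was at 797, 634, 796 and 874 CPM with vehicle and 764, 891, 701 and 885 CPM with FGF23 (log2 fold change 0.19, SE 0.11, adjusted p = 0.429). Slc22a6 had 491, 536, 561 and 457 CPM in healthy mice with vehicle and 611, 505, 349 and 357 CPM in those with FGF23. Its Adriamycin values were 536, 450.0, 519.7 and 548 CPM with vehicle and 478, 562, 462 and 582 CPM with FGF23 (log2 fold change 0.10, SE 0.10, adjusted p = 0.713). The same mice, Ad11 and Ad12, were lowest for Slc22a6, Slc22a8 and Slc22a12, and their proximal tubule markers summed to 14301 and 12854 CPM, against 13032 to 14744 CPM in the other 6 healthy mice. Of these markers, Slc13a3 alone was lowest in both, at 672 and 776 CPM, against 1029 to 1245 CPM in the other 6. Lrp2 was not low in them, at 2621 and 3098 CPM. The part of these markers in the transporter levels was not tested.

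Slc22a18 and the prostaglandin carrier Slc22a22 overlapped between the groups. Slc22a18 had 320.2, 294, 318 and 322 CPM in healthy mice with vehicle and 323, 305, 311 and 294 CPM in those with FGF23. Adriamycin mice had 331, 278, 278 and 352 CPM with vehicle and 309, 348, 329 and 339.7 CPM with FGF23 (log2 fold change 0.04, SE 0.050, adjusted p = 0.741). Slc22a22 measured 58.6, 70.6, 70.02 and 65.2 CPM in healthy mice with vehicle and 70.4, 70.6, 57.2 and 45.6 CPM in those with FGF23. The values with Adriamycin were 71.9, 56.4, 66.4 and 78.6 CPM with vehicle and 62.8, 82.7, 72.2 and 67.00 CPM with FGF23 (log2 fold change 0.14, SE 0.092, adjusted p = 0.528). The remaining 10 tested members had log2 fold changes from -0.05 (Slc22a13) to 0.23 (Slco4a1) and adjusted p of 0.762 or more. Over all 16 mice, Slc22a5 ranged from 240.2 to 354, Slc22a2 from 188 to 239, Slc22a23 from 169.5 to 225.5, Slc22a13 from 92.0 to 130.1 and Slc22a4 from 81.8 to 108 CPM. Slco2b1 ranged from 20.1 to 55.7 and Slco4a1 from 5.19 to 61.1 CPM, while Slc22a15 stayed at 7.11 CPM or less, Slc22a21 at 4.88 CPM or less and Slco1a4 at 1.35 CPM or less.

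Of the associated genes in the Adriamycin experiment, 2 of 11 partners were called. Slc5a8, a sodium-coupled carrier of lactate and other monocarboxylates, rose (log2 fold change 0.37, SE 0.05, adjusted p = 0.00104) and Slc17a3 fell (log2 fold change -0.37, SE 0.07, adjusted p = 0.0108). Of 9 pumps, Abcb1b rose (log2 fold change 0.66, SE 0.06, adjusted p = 3.01e-05) and Abcc3 fell (log2 fold change -0.71, SE 0.14, adjusted p = 0.0173). Among regulators, Ahr (log2 fold change -0.18, SE 0.07, adjusted p = 0.261) and Nfe2l2 (log2 fold change 0.08, SE 0.04, adjusted p = 0.285) did not pass the test.

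The next comparisons asked whether FGF23 changed the transporters, in healthy and in diseased mice. No member was called by edgeR in any of the 4 comparisons or in the 2 interactions of FGF23 with disease. The shares called among all genes were 0% and 0.24% in healthy and anti-GBM mice, 0.0315% for the anti-GBM interaction, 0% and 0.0375% in healthy and Adriamycin mice and 0% for the Adriamycin interaction. At an unadjusted p under 0.05 there were 0 members in healthy mice and 3 in anti-GBM mice of the first experiment, 1 in healthy and 0 in Adriamycin mice of the second, and 0 in both interactions. Among all 15859 genes of the first experiment, 689 were under that threshold in healthy mice, 1998 in anti-GBM mice and 1316 for the interaction. In the second experiment they numbered 1072, 912 and 819 of 16020, in the same order. DESeq2 called 1 member, Slc22a8 in anti-GBM mice, where it called 164 of all 15859 genes, and 0 members in the other 5.

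Slc22a8 was the member with the smallest p for FGF23. In anti-GBM mice it was at 669, 390.4, 597 and 649.7 CPM with vehicle and 330.4, 364 and 366 CPM with FGF23, so the groups did not overlap, although NTS6 lay close to the treated mice (log2 fold change -0.71, SE 0.18, adjusted p = 0.176 by edgeR and 0.0146 by DESeq2). In healthy mice the log2 fold change was -0.21 (SE 0.18), and the interaction was -0.49 (SE 0.25, adjusted p = 0.627). Leaving out each mouse gave log2 fold changes of -0.85 to -0.62 in anti-GBM mice, and without NTS6 the member was called by edgeR (adjusted p = 0.0291). Slco2b1 with FGF23 was at 48.1 to 73.6 CPM, above 38.3 to 47.2 CPM with vehicle (log2 fold change 0.39, SE 0.16, adjusted p = 0.358). Over the tested members the log2 fold changes for FGF23 ran from -0.37 to 1.06 in healthy mice, with a median of 0.04, and from -0.71 to 0.97 in anti-GBM mice, with a median of -0.0025. The ends of these ranges were set by members at low levels, Slc22a29 and Slco5a1 in healthy and Slco5a1 in anti-GBM mice, and by Slc22a8.

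In the Adriamycin experiment, Slc22a26 had the smallest p for FGF23 in healthy mice, with 10.9, 6.35, 10.4 and 4.49 CPM with vehicle and 6.25, 5.31, 3.88 and 2.54 CPM with FGF23 (log2 fold change -0.83, SE 0.30, adjusted p = 0.688). In Adriamycin mice its levels were 1.98 to 2.94 CPM with vehicle and 1.61 to 3.43 CPM with FGF23 (log2 fold change 0.06, SE 0.34, adjusted p = 0.993). The members' log2 fold changes ran from -0.83 to 0.45 in healthy and from -0.12 to 0.67 in Adriamycin mice, with medians of -0.08 and 0.06. In Adriamycin mice, Slc47a1 had an SE of 0.068 around 0.05 and Slc22a18 an SE of 0.070 around 0.10 on the log2 scale. Spreads were not as narrow for every transporter of high level. Slc22a12, the highest per kilobase in these mice, ranged from 549 to 642 CPM with vehicle and from 491 to 720 CPM with FGF23.

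In the kidney slices the question was whether FGF23 acted on the tissue outside the body. No member of 24 was called by edgeR or DESeq2, and edgeR called 0% of all 15090 tested genes. An unadjusted p under 0.05 was found in 3 members, beside 738 of the 15090 genes. The anion carriers were present at low levels. Slc22a8 was at 47.9, 42.3, 64.9 and 54.1 CPM with vehicle and 107, 51.7, 67.3 and 59.4 CPM with FGF23. Culture 1F stood far above the other 7 (log2 fold change 0.45, SE 0.21, adjusted p = 0.849). Slc22a6 was at 25.9, 18.5, 40.4 and 23.5 CPM with vehicle and 54.04, 23.9, 39.6 and 28.1 CPM with FGF23, again highest in 1F (log2 fold change 0.43, SE 0.28, adjusted p = 0.849). Slc22a12 was at 22.6, 13.7, 29.4 and 17.99 CPM with vehicle and 33.5, 13.6, 30.5 and 14.9 CPM with FGF23 and the groups overlapped fully (log2 fold change 0.14, SE 0.32, adjusted p = 0.939). Slc22a7 was near the limit, at 2.69, 0.41, 1.15 and 0.38 CPM with vehicle and 2.82, 0.77, 2.42 and 0.50 CPM with FGF23 (log2 fold change 0.49, SE 0.67, adjusted p = 0.91). Slc22a19 was at 5.16, 2.75, 3.09 and 2.49 CPM with vehicle and 3.73, 2.25, 3.98 and 2.07 CPM with FGF23, without separation (log2 fold change -0.17, SE 0.30, adjusted p = 0.928). Slc22a22 was at 0.97, 0.76, 1.23 and 0.98 CPM with vehicle and 2.73, 1.06, 1.30 and 1.41 CPM with FGF23, where the highest culture was 1F (log2 fold change 0.71, SE 0.34, adjusted p = 0.849). Slc22a29 was at 0.97, 0.47, 1.06 and 0.60 CPM with vehicle and 2.00, 0.99, 1.47 and 1.08 CPM with FGF23, with 1F highest (log2 fold change 0.85, SE 0.35, adjusted p = 0.849).

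The cation and carnitine carriers showed the same order of cultures in part. Slc22a2 was at 5.38, 8.08, 7.23 and 5.29 CPM with vehicle and 9.10, 4.08, 6.49 and 4.90 CPM with FGF23 and overlapped (log2 fold change -0.09, SE 0.25, adjusted p = 0.949). Slc47a1 was at 25.03, 32.4, 30.4 and 31.8 CPM with vehicle and 47.03, 28.7, 30.9 and 30.9 CPM with FGF23, where 1F alone exceeded the vehicle cultures (log2 fold change 0.20, SE 0.16, adjusted p = 0.859). Slc22a4, the member with the highest level per kilobase in slices, was even, at 60.1, 59.4, 61.1 and 65.6 CPM with vehicle and 61.05, 69.7, 64.6 and 72.2 CPM with FGF23 (log2 fold change 0.12, SE 0.080, adjusted p = 0.849). Its relative Slc22a5 was at 23.6 to 26.5 CPM in all 8 cultures (log2 fold change 0.03, SE 0.087, adjusted p = 0.957).

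Slc22a15, Slc22a17, Slc22a18 and Slc22a23 had small or single-culture differences. Slc22a17 was at 15.1, 10.1, 13.5 and 10.2 CPM with vehicle and 31.8, 12.5, 15.7 and 14.9 CPM with FGF23, and without 1F its log2 fold change was 0.24 in place of 0.61 (log2 fold change 0.61, SE 0.28, adjusted p = 0.849). Slc22a18 was at 14.4, 20.8, 14.6 and 15.9 CPM with vehicle and 28.5, 15.1, 24.2 and 15.3 CPM with FGF23 (log2 fold change 0.33, SE 0.22, adjusted p = 0.849). Slc22a15 was even at 14.7, 16.6, 14.99 and 15.1 CPM with vehicle and 14.6, 12.7, 15.4 and 11.9 CPM with FGF23 (log2 fold change -0.17, SE 0.12, adjusted p = 0.849). Slc22a23 was at 40.8, 53.3, 43.6 and 50.05 CPM with vehicle and 46.7, 46.9, 52.6 and 47.5 CPM with FGF23, without a difference beyond the spread (log2 fold change 0.04, SE 0.10, adjusted p = 0.942).

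Over the 8 cultures, Slco members summed to 293 to 389 CPM and Slc22a members to 300.4 to 474 CPM. Slco2a1 was at 121, 136, 134 and 151 CPM with vehicle and 163, 130.1, 149 and 135 CPM with FGF23, within overlapping ranges (log2 fold change 0.09, SE 0.098, adjusted p = 0.882). Slco3a1 was at 80.4, 107, 83.3 and 86.3 CPM with vehicle and 89.6, 76.1, 78.3 and 71.4 CPM with FGF23, slightly lower with FGF23 but with overlap (log2 fold change -0.18, SE 0.11, adjusted p = 0.849). Slco4a1 was at 69.7, 63.9, 65.3 and 60.3 CPM with vehicle and 117, 67.4, 105 and 63.3 CPM with FGF23, where 1F and 3F lay apart from the rest (log2 fold change 0.44, SE 0.18, adjusted p = 0.849). Without 1F its log2 fold change was 0.28. Slco5a1 was at 6.05, 11.4, 6.08 and 8.77 CPM with vehicle and 3.91, 6.62, 5.88 and 9.29 CPM with FGF23 (log2 fold change -0.34, SE 0.28, adjusted p = 0.86). Slco1a6 was at 1.05, 1.00, 1.41 and 0.30 CPM with vehicle and 1.82, 0.99, 0.61 and 1.00 CPM with FGF23, with 1F highest (log2 fold change 0.23, SE 0.44, adjusted p = 0.934). Slc22a13 was at 0.71 to 1.91 CPM, Slco2b1 at 10.8 to 21.4 CPM and Slc22a21 at 5.82 to 10.4 CPM over all 8 cultures, with adjusted p of 0.849 or more. The proximal tubule markers of the FGF23 cultures summed to 1190, 514, 765 and 562 CPM and those of the vehicle cultures to 489, 445, 573 and 508 CPM, so the culture with the most marker RNA was the culture with the most transporter RNA, 910 CPM over all members against 627 to 775 CPM in the other 7. The part of this in the differences was not tested.

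**Figure D5:**
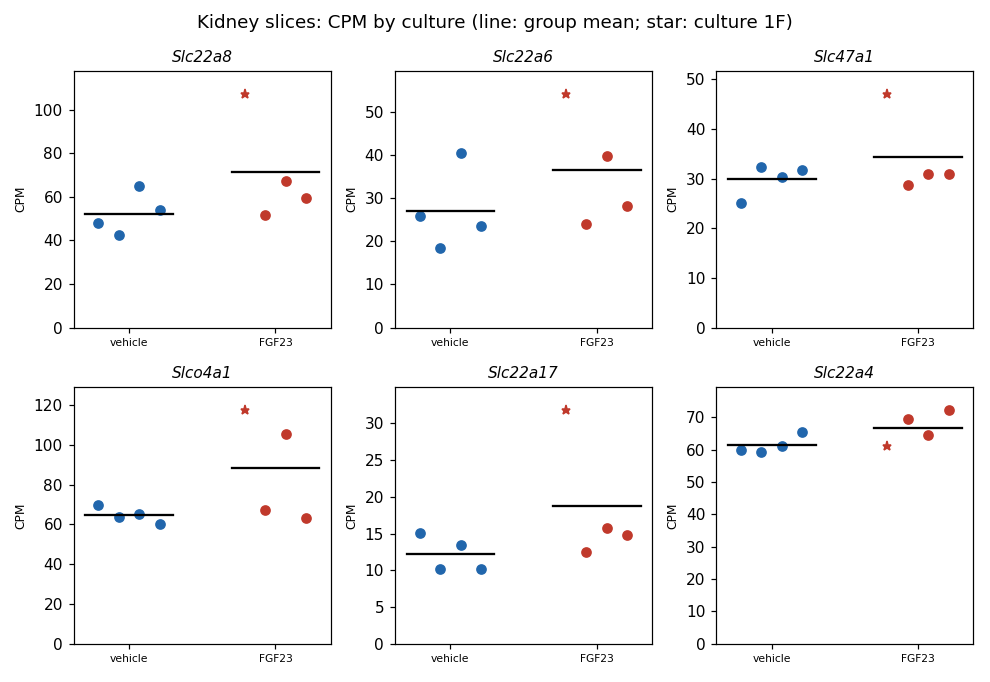
CPM in each kidney slice culture (points; black lines are group means) for 6 transporters on linear axes from 0; blue are vehicle and red FGF23 cultures, and the star is culture 1F. Culture 1F was highest for Slc22a8, Slc22a6, Slc47a1, Slco4a1 and Slc22a17 and not for Slc22a4.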

How the data were processed

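RNA of kidney fragments from the pars intermedia (30 libraries) and of kidney slices (8 libraries) was sequenced from stranded mRNA libraries. The authors demultiplexed reads with bcl2fastq 2.20.0, checked them with FastQC 0.11.8, aligned them to GRCm38 with STAR 2.7.9a and counted them per gene with featureCounts 1.5.1, and they deposited raw counts of 55487 genes. The strand setting and the handling of reads that fit several genes are not given in the sources used here.

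Each experiment was fitted on its own with edgeR 4.0.16 in R 4.3.3, with 1 coefficient per group, TMM scaling, filterByExpr at a minimum count of 10, the quasi-likelihood test and Benjamini-Hochberg adjustment over all tested genes. Disease effects were averaged over both treatments. DESeq2 1.42.0 and other settings served as alternatives. CPM are counts per 1000000 counts of the TMM-scaled library size, and levels per kilobase use GENCODE exon lengths on GRCm38. Depth limits members with few counts most.

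Library columns were assigned to groups through the labels and the headers of the study's supplementary tables, since the columns of the kidney fragments name mice by number. The column of mouse NTS14 carries the name NTS4, also that of a healthy mouse, joined to the number 14. Mice are separate animals. Whether the slices of a number share an animal is not given in the labels, so p-values there measure the spread between cultures. The study states 4 biologically independent replicates per group. Within groups, the chi-square per degree of freedom between slice libraries was 2.12 for 2F and 4F and 3.09 for 1V and 3V. For other slice pairs it was 9.99 to 43.1, and between mice of a group 6.45 or more. Whether these cultures share tissue was not tested, so 4 independent units per group are not assured. The members, gene lists and tests were chosen with earlier results of these data known. Values by library are given for members called in any comparison and for a fixed set of main transporters, up to 20 per experiment by smallest p, and other members are given by range. Single results of a few genes are not reported here, although counts over all members include them.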

Additional observations from a re-analysis of the deposited data

Results flagged for a closer look

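Within groups of 4 libraries, 11 of 232 combinations of a member and a group had a highest or lowest library whose gap to the next exceeded Dixon's 95% critical value for groups of 4. This is 4.74% of combinations, where chance gives about 1 in 20.

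In healthy vehicle mice of the anti-GBM experiment, Slco1a4 was 1.70 CPM in NTS1 against 2.19 to 2.28 CPM in the others, and Slco5a1 was 0.057 CPM, a single count, in NTS1 against 0. In anti-GBM vehicle mice, NTS7 was low for Slc22a12, at 796 CPM against 1271 to 1335 CPM, and for Slco2b1, at 38.3 CPM against 46.3 to 47.2 CPM.

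Among mice of the Adriamycin experiment, Slc22a18 was 294 CPM in healthy vehicle mouse Ad2 against 318 to 322 CPM. In Adriamycin mice with FGF23, Slco4a1 was 61.1 CPM in Ad13 against 5.19 to 9.52 CPM, and Slco4c1 was 7.78 CPM in Ad14 against 14.8 to 16.1 CPM. Collecting duct markers summed to 801 CPM in Ad13, the highest of its group, and their part in its Slco4a1 level was not tested.

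Of the slice cultures with FGF23, 1F stood apart for Slc22a17, at 31.8 CPM against 12.5 to 15.7 CPM, for Slc47a1, at 47.0 CPM against 28.7 to 30.9 CPM, and for Slc22a21, at 5.82 CPM against 9.96 to 10.4 CPM. Culture 3F was high for Slc22a23, at 52.6 CPM against 46.7 to 47.5 CPM.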

How the results depend on the processing

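In anti-GBM disease, 22 members were called, and 15 to 25 under the alternatives that kept the threshold, with 20 (without NTS2) to 23 (without NTS7) when 1 mouse was left out. Requiring an absolute log2 fold change above 1 left 7 of 32 tested members (3 higher, 4 lower), beside 1596 of all 15859 tested genes. Leaving out NTS3 and NTS5 together, an alternative chosen after seeing the data, gave 25 (5 higher, 20 lower). In Adriamycin disease, 6 were called, against 2 with an absolute log2 fold change above 1, 2 among vehicle mice, 0 among FGF23 mice, 10 with DESeq2 (3 higher, 7 lower) and 3 to 8 when 1 mouse was left out. Of all 16020 tested genes, that fold change cutoff kept 55 and DESeq2 called 587, beside 30 tested members. For FGF23 in anti-GBM mice, DESeq2 called 1 member, beside 164 of all 15859 genes, and leaving out 1 mouse gave 0 to 1. The remaining 6 comparisons had 0 members called under every alternative run. Single log2 fold changes were followed only for members at an unadjusted p under 0.05 in the main fit. Slc22a7, Slc22a13, Slc22a19 and Slco4c1 in anti-GBM disease were added to these. Among them, 900 alternatives kept direction and call, 85 lost the call, 30 gained it and 0 changed sign. Members with changes near 0 were mostly left out, and the fold change cutoff reuses the main fit. The absence of sign changes was therefore largely set by this choice. The causes were not tested.

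Over all genes, DESeq2 against edgeR called 587 and 310 genes in Adriamycin disease, 164 and 38 for FGF23 in anti-GBM mice, 47 and 5 for that interaction, 36 and 6 for FGF23 in Adriamycin mice, 8 and 0 for FGF23 in healthy mice of that experiment, 7 and 0 for its interaction and 3 and 0 in slices. Without a count filter the counts were 60 for FGF23 in anti-GBM mice, 29 for the interaction, 21 for FGF23 in Adriamycin mice and 2 in slices. Adriamycin disease had 53 called genes among vehicle and 112 among FGF23 mice, and anti-GBM disease had 4310 among FGF23 mice against 7665. In fits of only the 2 groups compared, FGF23 gave 12 in anti-GBM and 3 in Adriamycin mice. Without NTS3 and NTS5, FGF23 in anti-GBM mice gave 14 and the interaction 0, and RLE scaling gave 3 for the interaction. Leaving out 1 mouse moved the 310 genes of Adriamycin disease to between 172 (without Ad14) and 487 (without Ad6), with 179 to 198 without Ad3, Ad5 or Ad7. It moved the 38 for FGF23 in anti-GBM mice to 12 without NTS13, 17 without NTS14 and 21 without NTS5 or NTS8. The interaction had 14 without NTS16, 7 without NTS1, 1 without NTS2 and 0 without any other mouse. FGF23 in Adriamycin mice had 1 without Ad14 or Ad15, 2 without Ad6 or Ad7, 3 without Ad8, 4 without Ad4 or Ad5, 11 without Ad13 and 12 without Ad16. Of the comparisons with 0 genes, FGF23 in healthy mice gave 1 without NTS9 and 4 without Ad12, and the Adriamycin interaction gave 1 without Ad16.

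Slice cultures share replicate numbers between vehicle and FGF23. Their deviations from the group means correlated at 0.107, 0.105, -0.105 and 0.112 for the same number, not above 0.1 in every pair, so the numbers were not taken to pair the cultures, and with the replicate block 0 members were called. Vehicle cultures 1, 2 and 4 correlated best with their own number, where the highest correlation with another number was 0.00109, 0.0482 and 0.0778. Culture 3 did not, with 0.124 for another number. Whether the numbers pair the cultures is therefore not settled. The columns of the kidney fragments carry running numbers that differ between groups, although the name NTS4 stands in 2 of them, so no replicate block was fitted there.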
